A study of Mus musculus with 18 samples.

Results

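The genes described here are the 54 of the 55401 genes in the deposited tables that make, use or recycle glutathione, break down peroxides and superoxide, or control that program. They were taken by name: all numbered members of the *Gpx*, *Gsta*, *Gstm*, *Gstp*, *Gstt*, *Gsto*, *Gstk*, *Gstz*, *Mgst* and *Prdx* families without pseudogenes (8 names ending in -ps were dropped), and *Gclc*, *Gclm*, *Gss*, *Gsr*, *Cat*, *Sod1*, *Sod2*, *Sod3*, *Txn1*, *Txnrd1*, *Nqo1*, *Hmox1*, *Nfe2l2* and *Keap1*. The rule uses names only, but it was set with earlier results of these data known.

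Glutathione is a tripeptide that cells assemble from glutamate, cysteine and glycine through glutamate-cysteine ligase (*Gclc*, *Gclm*) and glutathione synthetase (*Gss*). Glutathione peroxidases spend it to reduce peroxides, glutathione transferases couple it to electrophiles, and glutathione reductase (*Gsr*) restores it with NADPH, while superoxide dismutases, catalase, peroxiredoxins and thioredoxin form parallel defences. The transcription factor NRF2 (*Nfe2l2*), which KEAP1 holds in check, drives many of these genes. The TAL, the thick ascending limb of Henle's loop, is rich in mitochondria that power salt transport, and its medullary part works at low oxygen tension.

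RNA was sequenced from 18 pools of tubules dissected from mouse kidney, each pool of 150 to 200 tubules from a single mouse. There were 5 pools of WT CTAL (the cortical TAL), 5 of cKO CTAL, 5 of WT MTAL (the TAL of the inner stripe of the outer medulla) and 3 of cKO MTAL. All mice were adult males labelled C57BL/6J and carried floxed *Cldn10* alleles (fl/fl), WT mice included. The cKO mice also carried Cre recombinase expressed from the Ksp-cadherin promoter in distal nephron cells, so that *Cldn10*, the gene of a tight junction protein for paracellular sodium transport, was deleted there but not in the whole mouse. The deletion was not complete, cKO MTAL was dissected from kidneys with calcium deposits in the outer medulla, and the study left out 2 cKO MTAL pools after quality control and 1 cKO CTAL pool for its *Cldn10* level, all 3 of which were not analysed here.

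Total counts were between 10824299 and 62339939 per pool. *Cldn10* held 446, 579, 384, 528 and 559 CPM in WT CTAL and 175, 170, 156, 175 and 185 CPM in cKO CTAL (CPM is the count per 1000000 counts of the TMM-normalized library size, used below to compare 1 gene between pools). It held 775, 735, 777, 653 and 810 CPM in WT MTAL and 296, 151 and 218 CPM in cKO MTAL, so that genotypes did not overlap in either segment. In TPM, which also corrects for transcript length and is used below to compare genes, the group means were 336 ± 55.4 TPM in WT CTAL, 123 ± 13.5 in cKO CTAL, 498 ± 40.9 in WT MTAL (SD, n = 5 each) and 156 ± 44.4 in cKO MTAL (SD, n = 3). The log2 fold change was -1.75 (SE 0.18) in MTAL and -1.55 (SE 0.11) in CTAL. One pool, WT CTAL 1, carries conflicting labels. Its name reads CTAL_WT_1, while the title text with that name (CTAL of *Cldn10* KO mice) and its genotype field say KO. Its 446 CPM of *Cldn10* lay among the WT CTAL pools and above all cKO CTAL pools, and it was used as WT. In a study of male mice, 7 pools held *Xist* at 6.37 to 8.58 CPM: 2 of WT CTAL, 1 of cKO CTAL, 4 of WT MTAL and none of cKO MTAL. The other 11 pools held at most 0.743 CPM, and the Y-linked *Ddx3y* was present in all pools. These CPM of *Xist* are per 1000000 total counts, without TMM factors.

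Defining TAL markers were high in all groups, with *Slc12a1*, the sodium-potassium-chloride cotransporter of the TAL, at 11424 CPM or more. Markers of other cell types differed between groups. The summed TPM of 12 proximal tubule markers was 126 to 244 in WT MTAL and 268 to 914 in cKO MTAL, and 134 to 455 in WT CTAL and 133 to 697 in cKO CTAL. The sum of 9 tubular injury genes, most of it osteopontin (*Spp1*), was 1035 to 1583 in WT MTAL and 2534 to 10750 in cKO MTAL, the highest pool being cKO MTAL 18. In CTAL it was 1603 to 1851 in WT and 2182 to 5348 in cKO, the highest pool being cKO CTAL 2. Endothelial markers summed to 142 to 195 TPM in WT MTAL and to 80.3 to 135 in cKO MTAL, immune cell markers to 37.1 to 46.4 and 50.1 to 71.0 TPM, and fibroblast and pericyte markers to 20.5 to 25.2 and 34.6 to 52.1 TPM. Of the markers tested in MTAL, 4 of 7 endothelial ones were lower in cKO and none of 5 immune ones passed. Of 6 fibroblast and pericyte markers 1 was higher, and their median log2 fold change was -0.01. Principal cell markers of the collecting duct summed to 42.4 to 245 TPM in WT MTAL and to 80.7 to 831 TPM in cKO MTAL. Intercalated cell markers summed to 7.7 to 40.8 and 15.5 to 113 TPM. The highest pool was cKO MTAL 20 in each case. In CTAL the principal cell markers were at 93.9 to 173 TPM in WT and 57.5 to 304 TPM in cKO. The intercalated cell markers there were at 19.5 to 23.4 and 25.5 to 80.3 TPM. In such bulk pools, fewer cells of a type and less RNA per cell cannot be told apart.

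As a class, these genes were abundant in the TAL. They summed to 6758 ± 376 TPM in WT CTAL, 7143 ± 773 in cKO CTAL, 6168 ± 843 in WT MTAL (SD, n = 5 each) and 7451 ± 934 in cKO MTAL (SD, n = 3), and the ranges over pools overlapped between all groups. Over all pools, 13 genes had a mean above 100 TPM, 24 lay between 10 and 100, 8 between 1 and 10, and 9 below 1. A single gene, *Prdx5*, took the largest share. This peroxiredoxin of mitochondria, peroxisomes and cytosol was at 2374 ± 384 TPM in WT CTAL and 2293 ± 402 in WT MTAL, and the peroxiredoxin and thioredoxin class held 45.6% to 49.2% of the summed TPM of the 54 genes in each group. *Prdx5* overlaps *Trmt112* on the opposite strand, and whether counting used the strand is not given in the sources used here.

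**Figure D1:**
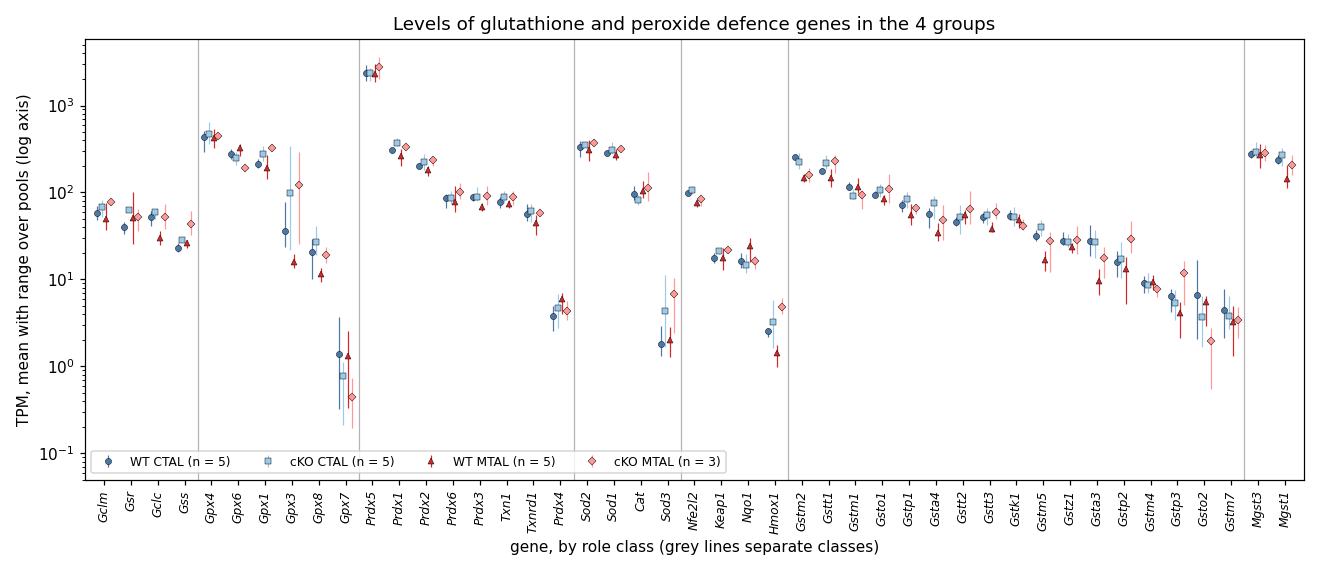
Mean TPM of the 45 genes with a mean of at least 1 TPM over all pools in the 4 groups, with bars from the lowest to the highest pool, on a log axis and ordered by role class. *Prdx5* stands above all others, at a mean of 2409 TPM over all pools, and *Gpx3* runs from 25.6 to 294 TPM within cKO MTAL.

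Below *Prdx5*, the mean over all pools was 443 TPM for *Gpx4*, the peroxidase that reduces lipid peroxides in membranes, 339 TPM for the mitochondrial dismutase *Sod2*, 315 TPM for *Prdx1* and 292 TPM for the cytosolic dismutase *Sod1*. *Mgst3*, a membrane-bound transferase, followed at 279 TPM, then *Gpx6* at 269 TPM, *Gpx1*, the main cytosolic peroxidase, at 243 TPM, *Mgst1* at 216 TPM and *Prdx2* at 207 TPM. The ranges over pools of neighbours in this order overlapped, apart from *Prdx5*, whose lowest pool (1876 TPM) was above the highest of any other of these genes. Among cytosolic transferases *Gstm2* (199 TPM), *Gstt1* (188 TPM) and *Gstm1* (105 TPM) led. The synthesis and reduction genes were less abundant, with *Gclm* at 61.6 TPM, *Gsr* at 51.4 TPM, *Gclc* at 48.1 TPM and *Gss* at 28.7 TPM. Of the regulators, *Nfe2l2* stood at 91.9 TPM and *Keap1* at 19.4 TPM, and 2 genes that NRF2 is known to drive, *Nqo1* and *Hmox1*, stood at 18 and 2.78 TPM.

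Several family members were hardly present. *Gpx2*, the peroxidase of the gut, had 3 counts over all 18 pools, *Gstt4* had 11, *Gpx5*, the peroxidase of the epididymis, had 22 and *Gsta1* had 25. These counts are too low for a comparison at this depth. In all, 9 genes had estimated counts with decimals in all 18 pools: *Gpx4*, *Sod1*, *Sod2*, *Prdx1*, *Prdx2*, *Gstm1*, *Gstp1*, *Gstp2* and *Gclm*. *Gstm2* had them in 17 pools. Decimals can come from reads shared with other genes, which was not tested, and levels of these genes are uncertain to that extent.

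For the tests, a gene had to reach 3 CPM in 5 or more pools, a number lowered to 3 pools for comparisons with cKO MTAL. The CPM of this filter is on total counts, without TMM factors. Of the 54 genes, 40 passed in every comparison, 3 in some (*Hmox1*, *Gsto2*, *Prdx4*) and 11 in none: *Gsta1*, *Gsta2*, *Gstm3*, *Gstm6*, *Gstp3*, *Gstt4*, *Gpx2*, *Gpx5*, *Gpx7*, *Mgst2* and *Prdx6b*. A gene was counted as changed at an adjusted p under 0.05 in the quasi-likelihood test of edgeR, adjusted over all genes tested. Log2 fold changes below are from this test, with their standard error.

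The first comparison asked what loss of *Cldn10* did in MTAL. *Gpx6* fell and 3 genes rose: the secreted peroxidase *Gpx3*, the cytosolic peroxidase *Gpx1* and the extracellular dismutase *Sod3*. *Cat*, the catalase of peroxisomes, was lower on the count scale. With the heme oxygenase *Hmox1*, 6 of 43 genes tested were called, against 7.01% of all 12060 genes (845 genes). *Hmox1* entered the test only through the cKO MTAL pools, where it is high, so that its call is not read here as a change, and 5 were left. Of the 6, 4 were higher, *Hmox1* among them, against 4.44% of all genes, and 2 were lower, against 2.57%. Of the 6, *Gpx3*, *Hmox1* and *Sod3* reached an absolute log2 fold change of 1, against 3.74% of all genes. The median log2 fold change of the 43 genes was 0.15 and that of all genes 0.00, and 27 of the 43 were above 0. On the TPM scale the median of all genes itself shifted to 0.19 and that of these genes stood at 0.30.

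*Gpx6* gave the clearest difference. In the mouse this peroxidase carries cysteine in place of the selenocysteine of most of its relatives. Its gene lies at chr13:21312125-21319624 on the plus strand of GRCm38 and overlaps no other annotated gene. The 5 WT MTAL pools held 346, 329, 346, 300 and 339 CPM, and the 3 cKO MTAL pools held 173, 163 and 167 CPM. No pool of one genotype reached the range of the other, and the log2 fold change was -0.98 (SE 0.11, adjusted p = 4.76e-05). In CTAL the 5 WT pools held 275, 273, 238, 291 and 262 CPM and the 5 cKO pools 198, 254, 214, 232 and 213 CPM. These ranges overlapped, and the log2 fold change of -0.28 (SE 0.08) did not pass, with an adjusted p of 0.138.

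The genotype effect on *Gpx6* differed between the segments. The interaction of genotype and segment, fitted on all 18 pools, was -0.72 (SE 0.12, adjusted p = 0.00788), and *Gpx6* was the only one of 43 genes tested to pass, against 0.286% of all 12586 genes (36 genes). None passed in the higher direction, against 0.262% of all genes, and 1 in the lower, against 0.0238%. In WT mice *Gpx6* was higher in MTAL than in CTAL, by 0.31 (SE 0.08, adjusted p = 0.0189), while in cKO mice the log2 difference was -0.37 (SE 0.10, adjusted p = 0.0917) and did not pass. The interaction passed without each of the 18 pools in turn, with values from -0.75 to -0.65. With a term for the pools with *Xist*, which were 4 of 5 in WT MTAL and none in cKO MTAL, it was -0.75 (adjusted p = 0.0161). It did not pass with limma on log2(TPM + 1), where the adjusted p was 0.196.

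**Figure D2:**
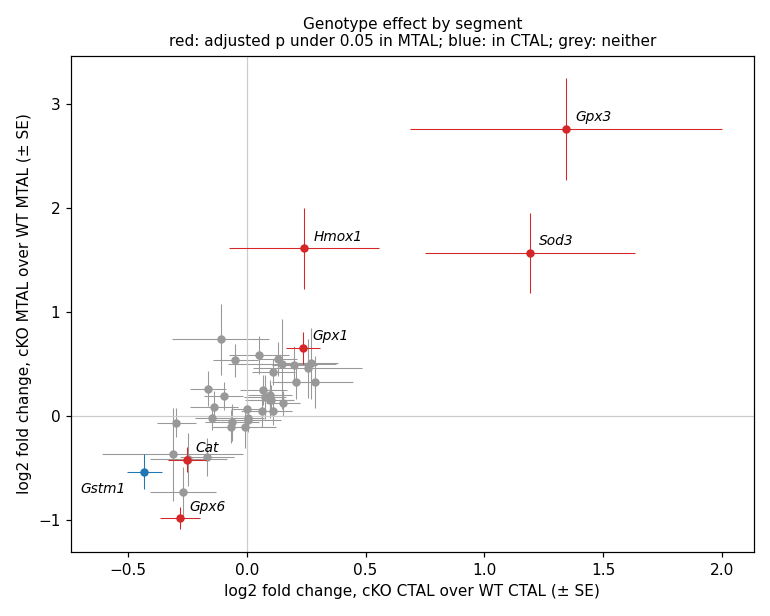
Log2 fold change of cKO over WT in MTAL (vertical axis) against that in CTAL (horizontal axis) for each gene tested in both, with standard errors as bars, red for genes with an adjusted p under 0.05 in MTAL and blue in CTAL. *Gpx6* lies at -0.98 in MTAL and -0.28 in CTAL, and *Gpx3* at 2.76 in MTAL and 1.34 in CTAL.

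The 300 bases around the *Gpx6* start are printed because this gene carries the interaction. They are the RefSeq window of 250 bases before to 50 after the RefSeq start at chr13:21311953-21312252 (GRCm38.p6, plus strand), with the start base in capitals. The RefSeq start lies inside the gene as given above, since the annotations place the start differently.
Gpx6: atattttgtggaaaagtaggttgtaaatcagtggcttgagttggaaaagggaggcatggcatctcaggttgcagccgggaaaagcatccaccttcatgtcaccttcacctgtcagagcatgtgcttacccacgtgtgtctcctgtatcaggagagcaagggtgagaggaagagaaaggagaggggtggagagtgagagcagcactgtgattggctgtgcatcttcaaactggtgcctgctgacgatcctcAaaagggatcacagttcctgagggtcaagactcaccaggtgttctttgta

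The NRF2 binding element was searched as TGACNNNGC on both strands, where N is any base. It is not in this window of *Gpx6*. Its letters occur in at least 1 window of 9 of the 46 genes that had a RefSeq window (19.6%) and of 13.99% of all 27025 genes with one.

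*Gpx3*, the secreted peroxidase that the proximal tubule is known to release into plasma, had a log2 fold change of 2.76 (SE 0.49, adjusted p = 0.00314) in MTAL. The WT MTAL pools held 19.5, 22.6, 18.8, 22.1 and 18.1 CPM and the cKO MTAL pools 31.2, 327 and 51.7 CPM. All 3 cKO pools were above all 5 WT pools, but cKO MTAL 18 stood far above the other 2. Without that pool the log2 fold change was 1.04 with an adjusted p of 0.0101, and with limma on log2(TPM + 1) of all 8 pools the change did not pass (adjusted p = 0.0844). In CTAL, 1 cKO pool stood apart in the same way: cKO CTAL 2 held 405 CPM where the others held 24 to 63.9 CPM. The WT CTAL pools held 32.5, 33.8, 32.8, 27.1 and 98.6 CPM, so that the groups overlapped and the log2 fold change of 1.34 (SE 0.66) did not pass (adjusted p = 0.445).

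In 3 groups the pool with the most *Gpx3* was also the one with the most proximal tubule marker RNA. The summed markers were at 914 TPM in cKO MTAL 18, 697 TPM in cKO CTAL 2 and 455 TPM in WT CTAL 22. They were also at 677 TPM in cKO MTAL 20 and 587 TPM in cKO CTAL 9, which held only 51.7 and 63.9 CPM of *Gpx3*. The tubular injury genes, at 10750 TPM in cKO MTAL 18 and 5348 TPM in cKO CTAL 2, were likewise highest of their groups in those pools. In the MTAL comparison 5 of the 7 proximal tubule markers tested were higher in cKO and none was lower. Within cKO MTAL the kidney androgen-regulated protein *Kap*, a proximal tubule gene, held 88.7, 294 and 170 CPM. In TPM most of the 12 markers were, like *Kap*, highest in cKO MTAL 18. *Acsm2* and *Slc34a1* were highest in cKO MTAL 20, at 89.7 and 32.2 TPM against 14.9 and 15.2 TPM in cKO MTAL 18. *Slc5a12*, at most 0.187 TPM, was highest in cKO MTAL 16. With a term for the proximal tubule markers in 1 fit of all 18 pools, an alternative chosen after seeing the data, the log2 fold change was 0.23 for *Gpx3* (adjusted p = 0.855), 0.09 for *Sod3* (0.926), 1.06 for *Hmox1* (0.114), -0.90 for *Gpx6* (6.21e-05), 0.61 for *Gpx1* (0.0181) and -0.44 for *Cat* (0.0374). The part of these cells in the results was not tested.

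*Sod3*, which clears superoxide outside cells, behaved like *Gpx3* by pool. WT MTAL held 4.04, 8.11, 5.29, 4.83 and 8.96 CPM and cKO MTAL 7.07, 28.4 and 19.9 CPM, so that the lowest cKO pool lay within the WT range. The log2 fold change of 1.57 (SE 0.39) had an adjusted p of 0.0226, which rose to 0.126 without cKO MTAL 18. In CTAL, cKO CTAL 2 again stood alone, at 32.2 CPM against 4.47 to 8.57 CPM in the others, and the change of 1.19 (SE 0.44, adjusted p = 0.277) did not pass.

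*Hmox1*, which degrades heme and is a known NRF2 target, was low in every pool. It held 2.25, 2, 1.73, 1.58 and 1.30 CPM in WT MTAL and 5.09, 4.34 and 6.82 CPM in cKO MTAL, and the groups did not overlap. The log2 fold change was 1.61 (SE 0.39). No WT MTAL pool reached 3 CPM, so that the gene passed the filter only through the group where it is high, and without any one of the cKO pools it failed the filter. Its values are therefore a description. With no filter on low counts the log2 fold change was 1.55 with an adjusted p of 0.0494. Red blood cell markers, which belong to cells rich in heme, summed to 11.7 to 66.4 TPM in WT MTAL and to 74.5 to 163 TPM in cKO MTAL. Their part in the result was not tested.

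*Gpx1* rose moderately, with 125, 131, 84.3, 83.2 and 98.1 CPM in WT MTAL and 186, 152 and 154 CPM in cKO MTAL. All cKO pools were above all WT pools, with a log2 fold change of 0.66 (SE 0.16, adjusted p = 0.0195). The call was lost without WT MTAL 15, WT MTAL 19 or cKO MTAL 16, where the adjusted p reached 0.0804. In CTAL the groups ran from 107 to 125 CPM in WT and from 124 to 148 CPM in cKO, and the log2 fold change of 0.24 (SE 0.07) did not pass (adjusted p = 0.163).

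*Cat* was lower in cKO MTAL on the count scale, with 188, 195, 210, 199 and 182 CPM in WT and 132, 134 and 170 CPM in cKO. The log2 fold change of -0.42 (SE 0.12, adjusted p = 0.0442) did not hold in 7 of the 8 fits that left out 1 pool, and it turned to 0.03 on log2(TPM + 1). In TPM *Cat* held 79.5, 86.4 and 172 in cKO MTAL, the last in cKO MTAL 20, against 86.2 to 134 in WT MTAL. Its direction therefore depends on the unit and, in TPM, rests on that pool. *Sod1* and *Sod2*, both more abundant, did not pass in any comparison.

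**Figure D3:**
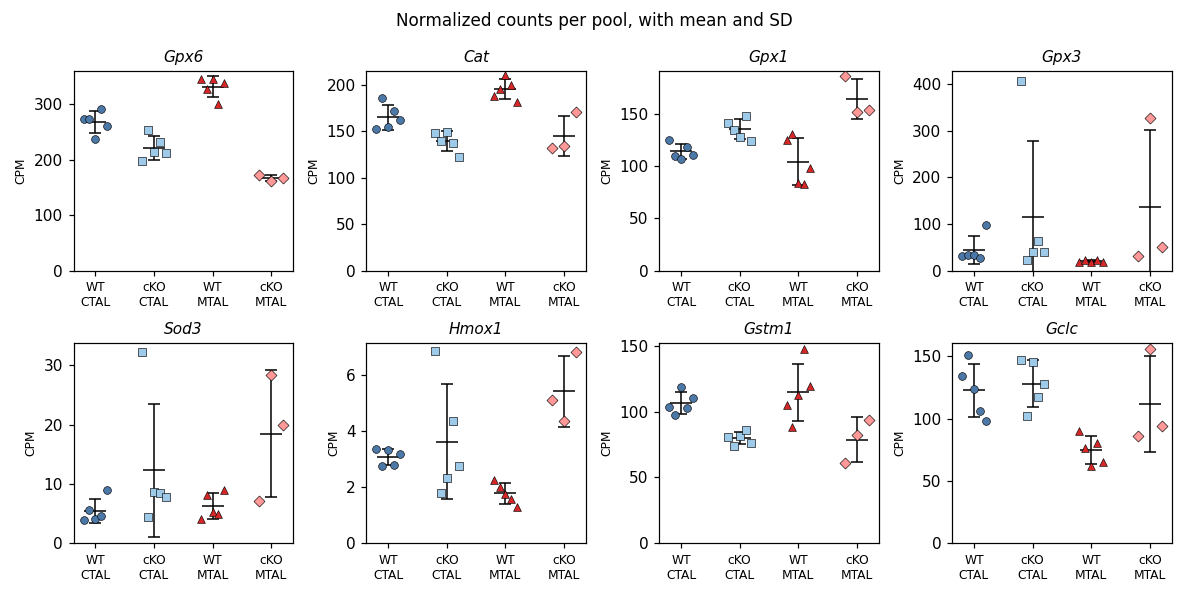
CPM in each pool for 8 genes, with the group mean and SD as black bars (cut at 0 where the SD exceeds the mean). *Gpx6* in the 3 cKO MTAL pools lies between 163 and 173 CPM, below all other pools, while *Gpx3* and *Sod3* are high in cKO MTAL 18 and cKO CTAL 2.

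No gene of glutathione synthesis and reduction passed for genotype. All 4 had values above 0 in MTAL, with log2 fold changes from 0.25 for *Gclm* to 0.59 (SE 0.18, adjusted p = 0.0617) for *Gclc*, the catalytic subunit of the rate-limiting enzyme. *Gclc* held 90.3, 76.2, 62.0, 80.0 and 65.5 CPM in WT MTAL and 85.6, 156 and 94.1 CPM in cKO MTAL, the highest again being pool 18. Glutathione reductase (*Gsr*) had 0.49 (SE 0.18, adjusted p = 0.106).

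Peroxiredoxins and thioredoxin did not pass for genotype either, with 8 tested in MTAL and log2 fold changes from -0.62 to 0.42. The highest was *Txnrd1*, the reductase of thioredoxin, at 0.42 (SE 0.12, adjusted p = 0.0521). Of 16 cytosolic and mitochondrial transferases tested in MTAL none passed. Their values ran from -1.55 (*Gsto2*, under 7 CPM in every pool) to 0.74 (*Gsta3*), and *Gstt1* missed the threshold at 0.55 (SE 0.16, adjusted p = 0.0519).

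In CTAL, the corresponding comparison asked what loss of *Cldn10* did in the cortical segment. One gene of 41 tested passed, *Gstm1*, a mu-class transferase, against 1.22% of all 11702 genes (143 genes). It was lower, as were 0.564% of all genes, and none of the 41 was higher, against 0.658%. The WT CTAL pools held 103, 97.8, 119, 103 and 110 CPM and the cKO CTAL pools 80.9, 74.1, 81.3, 85.9 and 76.6 CPM. These groups did not overlap, and the log2 fold change was -0.43 (SE 0.07, adjusted p = 0.00975).

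The call on *Gstm1* held without each pool in turn but not under several other settings, among them WT CTAL 1 counted as cKO (as its genotype field has it) and the 3 CTAL pools with *Xist* left out. The log2 fold change ran from -0.49 to -0.35 over those settings. In MTAL it was -0.54 (SE 0.17, adjusted p = 0.0692), with 105, 88.2, 113, 148 and 119 CPM in WT and 60.7, 82.2 and 93.8 CPM in cKO. The difference between the segments was not called. *Gstm1* is one of the genes with decimals in their counts, and its close relative *Gstm2* had -0.30 (SE 0.08, adjusted p = 0.109) in CTAL. The median log2 fold change of the 41 genes in CTAL was 0.05 and that of all genes 0.00, with 24 of the 41 above 0, and on the TPM scale the median of all genes was 0.13.

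Between the segments of WT mice, more of these genes were called in this edgeR test than between genotypes. The counts of each comparison depended on the test, as given in the last section. Of 42 tested, 13 passed, 31.0% of them, against 6.87% of all 11650 genes (800 genes). Of these, 11 were lower in MTAL than in CTAL, against 4.10% of all genes, and 2 were higher, against 2.76%. Only *Gsta3* and *Gpx3* reached an absolute log2 fold change of 1, against 2.32% of all genes. The median of the 42 genes was -0.08 and that of all genes 0.02, and 14 of the 42 were above 0. The lower ones were *Gclc*, *Gpx3*, *Prdx3*, *Txnrd1*, *Nfe2l2*, *Mgst1* and 5 cytosolic transferases (*Gsta3*, *Gsta4*, *Gstm2*, *Gstm5*, *Gstt3*), and the higher ones were *Gpx6* and *Nqo1*. *Xist* was found in 4 of the 5 WT MTAL pools and 2 of the 5 WT CTAL pools. With a term for it 8 genes passed, and the calls of *Gpx3*, *Prdx3*, *Gsta4*, *Gstm5* and *Gstt3* were lost.

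**Figure D4:**
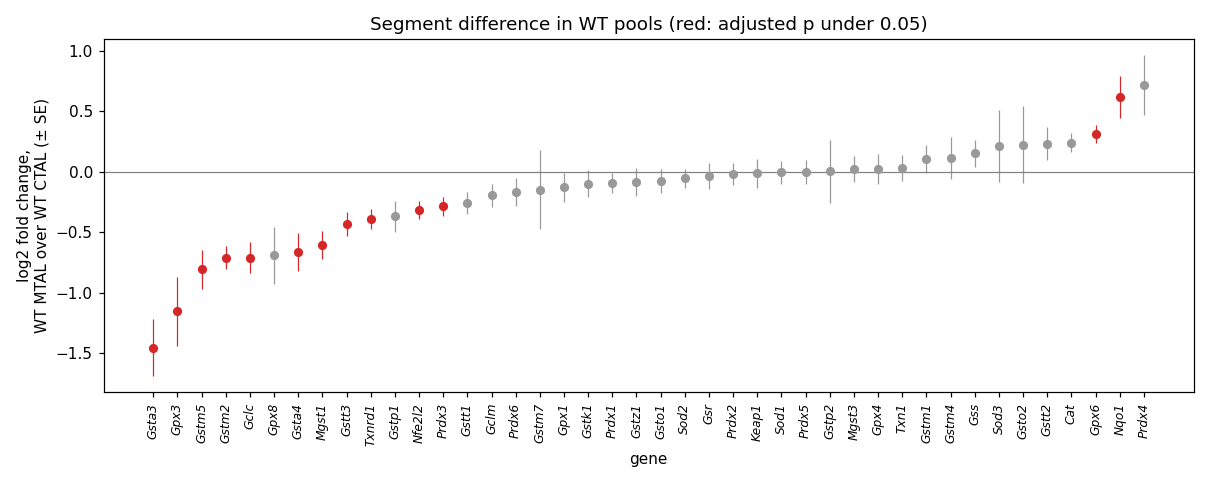
Difference of WT MTAL from WT CTAL (log2 fold change) for the 42 genes tested, in order of size, with standard errors as bars and red for an adjusted p under 0.05. The largest fall is *Gsta3* at -1.45, and the 2 red genes above 0 are *Gpx6* and *Nqo1*.

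Of the 11 lower genes, 6 were transferases. *Gsta3*, an alpha-class transferase, held 21.7, 14.3, 29.7, 17.2 and 17.6 CPM in WT CTAL and 7.10, 7.45, 5.04, 10.9 and 6.06 CPM in WT MTAL (log2 fold change -1.45, SE 0.24, adjusted p = 0.000851). *Gstm2* held 198, 206, 186, 170 and 198 CPM in WT CTAL and 129, 98.9, 113, 137 and 106 CPM in WT MTAL (-0.71, SE 0.10, adjusted p = 0.00016). Neither gene overlapped between the segments. *Gstm5* was at 18.8 to 21.5 CPM in WT CTAL and 8.40 to 14.9 CPM in WT MTAL (-0.81, SE 0.16), also without overlap. *Gsta4*, which handles aldehydes from lipid peroxidation, fell by 0.66 (SE 0.16, adjusted p = 0.0151) with overlap, and *Gstt3* fell by 0.43 (SE 0.10, adjusted p = 0.0144) from 68.5 to 80.6 CPM in WT CTAL to 42.9 to 58.8 CPM in WT MTAL.

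*Mgst1*, a membrane-bound transferase with peroxidase activity, held 95.1 to 135 CPM in WT CTAL and 61.5 to 90.6 CPM in WT MTAL (-0.60, SE 0.12, adjusted p = 0.00333). It was also the only 1 of 42 genes to pass between the cKO segments (-0.53, SE 0.10, adjusted p = 0.0228), with 115 to 142 CPM in cKO CTAL and 84.1, 79.6 and 89.2 CPM in cKO MTAL. In that comparison 1.75% of all 12044 genes passed (211 genes), 0.631% lower and 1.12% higher. The 2 segment comparisons share no pool, and *Mgst1* was lower in every MTAL pool than in every CTAL pool of its genotype. The cKO call was lost without cKO CTAL 4, 7 or 9 or cKO MTAL 16. The median of the 42 genes between the cKO segments was 0.01, that of all genes 0.03.

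Of the synthesis genes, *Gclc* held 134, 151, 124, 106 and 97.8 CPM in WT CTAL and 90.3, 76.2, 62.0, 80.0 and 65.5 CPM in WT MTAL (-0.71, SE 0.13, adjusted p = 0.00176). Its partner *Gclm*, the modifier subunit, did not pass (-0.20, SE 0.10, adjusted p = 0.294). The segments did not overlap for *Gclc*, and its call held in all fits that left out 1 pool.

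Among peroxidases *Gpx3* was lower in WT MTAL (-1.15, SE 0.29, adjusted p = 0.0199), and without WT CTAL 22, the pool with the most proximal tubule marker RNA of its group, by -0.64 (adjusted p = 0.00707). *Txnrd1* was at 105 to 123 CPM in WT CTAL and 78.8 to 102 CPM in WT MTAL (-0.39, SE 0.09, adjusted p = 0.00868). *Prdx3*, the mitochondrial peroxiredoxin, fell by 0.29 (SE 0.08, adjusted p = 0.0288), a small difference whose call held in 4 of 10 fits without 1 pool.

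*Nfe2l2* and *Nqo1* differed in opposite directions. *Nfe2l2*, the gene of NRF2 itself, held 173, 184, 160, 155 and 176 CPM in WT CTAL and 140, 132, 141, 138 and 131 CPM in WT MTAL (-0.32, SE 0.07, adjusted p = 0.0138). *Nqo1*, a quinone reductase, was higher in WT MTAL, with 33.4, 31.3, 34.8, 22.2 and 19.7 CPM against 18, 16.6, 15.7, 18.5 and 23.0 CPM (0.62, SE 0.17, adjusted p = 0.0400). Its groups overlapped and its call held in 3 of 10 fits without 1 pool. *Nqo1* in cKO MTAL, at 20.3, 13.6 and 17.1 CPM, was within the range of the CTAL groups, but the genotype effect of -0.73 (SE 0.23, adjusted p = 0.0701) did not pass.

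**Figure D5:**
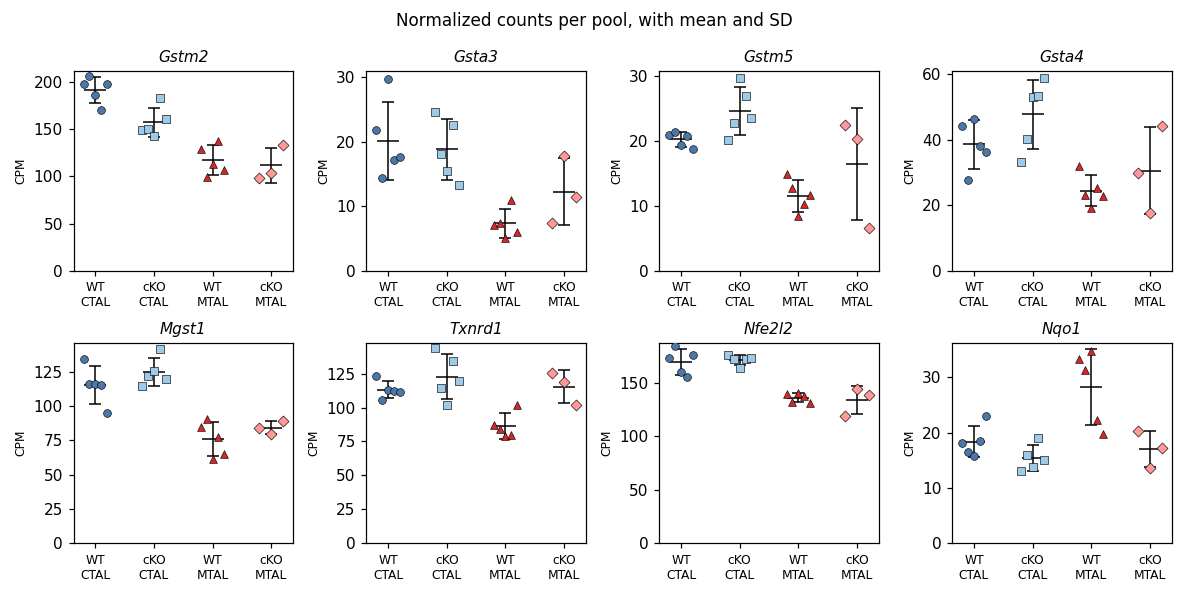
CPM in each pool for 8 genes that differed between WT MTAL and WT CTAL, with the group mean and SD as black bars. *Gstm2*, *Gsta3*, *Gstm5*, *Mgst1*, *Txnrd1* and *Nfe2l2* lie lower in WT MTAL than in WT CTAL in every pool, and the 3 cKO MTAL pools of *Txnrd1* lie at 102 to 126 CPM.

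Of the 11 genes lower in WT MTAL, 9 had a RefSeq promoter window and 5 of these (55.6%) held TGACNNNGC or its reverse complement GCNNNGTCA, as did 4 of 25 genes that did not pass (16%) and 0 of the 2 that were higher. Over all genes tested between the WT segments, the letters were in 18.4% of those lower, 19% of those higher and 16.9% of those that did not pass. Between the MTAL genotypes, 0 of 4 genes called and 9 of 32 that did not pass (28.1%) held the letters. Over all genes tested between the MTAL genotypes, the shares were 19.6% of those lower, 16.7% of those higher and 17.1% of those that did not pass. The 5 stretches are shown because they belong to genes lower in WT MTAL than in WT CTAL. Each is from RefSeq (GRCm38.p6), 5′ to 3′ on the strand of its gene, with the matching 9 bases in capitals: *Gsta3* at chr1:21240449-21240487 (plus), *Gstm5* at chr3:107895797-107895835 (plus), *Mgst1* at chr6:138140456-138140494 (plus), *Nfe2l2* at chr2:75704880-75704913 (minus) and *Txnrd1* at chr10:82859099-82859137 (plus).
Gsta3: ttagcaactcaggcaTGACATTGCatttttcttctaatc
Gstm5: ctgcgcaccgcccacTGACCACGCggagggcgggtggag
Mgst1: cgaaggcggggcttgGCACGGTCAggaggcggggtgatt
Nfe2l2: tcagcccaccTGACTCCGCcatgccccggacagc
Txnrd1: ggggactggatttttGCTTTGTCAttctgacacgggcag
A match of letters is a description of the window, and no binding was measured. The matches begin 121 bases before the RefSeq start of the window in *Gsta3*, 42 in *Gstm5*, 56 in *Mgst1*, 240 in *Nfe2l2* and 92 in *Txnrd1*. *Mgst1* and *Txnrd1* also have RefSeq windows at other starts, which did not hold the letters. A gene was counted when at least 1 of its windows held them. *Gclm*, *Gstm7*, *Prdx1* and *Sod1* also held the letters and did not pass.

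Around these genes, 95 further genes of the pathway were counted in 5 lists (NADPH and cysteine supply, glutathione breakdown and transport, thioredoxin and glutaredoxin, NRF2 partners and targets, and sources of superoxide). In MTAL 6 of 75 tested were higher in cKO, against 4.44% of all genes, and 3 were lower, against 2.57%, with a median log2 fold change of 0.08. The 3 largest were *Ptges*, which makes prostaglandin E2 with glutathione as cofactor (2.74, SE 0.59, adjusted p = 0.0109), *Chac1*, which cleaves glutathione inside cells (-1.98, SE 0.44, adjusted p = 0.0138), and *Ggt1*, which cleaves it at the cell surface (1.75, SE 0.19, adjusted p = 5.67e-05). *Ptges* (no WT MTAL pool at 3 CPM) and *Chac1* (no cKO MTAL pool at 3 CPM) passed the filter only through the group where they are high, so that their values are a description and 7 calls are left. Among the 7 is 1 of 2 records of *Nnt*, a gene described below (-0.92, SE 0.13, adjusted p = 0.000578). Its other record had 0.95 (SE 0.31, adjusted p = 0.0730), so that no direction is read for *Nnt* in this comparison either.

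*Ggt1* ran from 61.1 to 122 CPM in WT MTAL and was at 227, 401 and 297 CPM in cKO MTAL, beside 279 to 409 CPM in WT CTAL and 426 to 577 CPM in cKO CTAL. It was lower in WT MTAL than in WT CTAL (-1.97, SE 0.16, adjusted p = 9.32e-07), and its interaction of genotype and segment was 1.30 (SE 0.24, adjusted p = 0.016), the only 1 of 78 pathway genes to pass, against 0.286% of all genes. *Ggt1* is also abundant in the proximal tubule. Of the 7 markers of that tubule, 5 were higher in cKO MTAL than in WT MTAL and 0 passed between the WT segments, and their part was not tested. *Chac1* had a log2 fold change of 1.92 (SE 0.35) between WT MTAL and WT CTAL, where it passed the filter only through WT MTAL, and *Msrb3*, a methionine sulfoxide reductase, was the third in that comparison (0.94, SE 0.25, adjusted p = 0.03), in which 4 of 72 were higher, *Chac1* among them, against 2.76% of all genes, and 3 lower, against 4.10%.

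In CTAL 1 of 71 pathway genes passed for genotype, against 1.22% of all genes. It was *Cyba*, the p22phox subunit of superoxide-making NADPH oxidases (0.78, SE 0.15, adjusted p = 0.0176). It held 19.99, 10.9, 20.4, 15.4 and 15.8 CPM in WT CTAL and 23.9, 30.8, 28.4, 30.5 and 30.9 CPM in cKO CTAL, without overlap. In MTAL *Cyba* held 7.63 to 17.7 CPM in WT and 29.8, 23.9 and 46.9 CPM in cKO (1.57, SE 0.28, adjusted p = 0.00331). It therefore passed in both segments, in separate pools. *Cyba* is also expressed by phagocytes, and the summed immune cell markers were at 37.1 to 46.4 TPM in WT MTAL and 50.1 to 71.0 TPM in cKO MTAL, and at 47.3 to 62.8 TPM in WT CTAL and 48.5 to 76.3 TPM in cKO CTAL. None of the 5 such markers tested in MTAL or the 6 in CTAL passed, and their part was not tested.

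Between the cKO segments 2 of 77 pathway records passed, against 1.75% of all genes. *Anpep*, an aminopeptidase that acts after *Ggt1*, was higher in MTAL (1.19, SE 0.24, adjusted p = 0.0258), and the other was a record of *Nnt*, a mitochondrial enzyme that makes NADPH. *Nnt* has 2 records in the tables, ENSMUSG00000025453.18 at chr13:119335448-119408997 and ENSMUSG00000116207.1 at chr13:119335528-119408952, both on the minus strand. The log2 fold change was -0.89 (SE 0.14, adjusted p = 0.00721) for the second and 0.97 (SE 0.45, adjusted p = 0.284) for the first. That record held 604.6, 682, 765, 656 and 552 CPM in cKO CTAL and 281, 410.3 and 340 CPM in cKO MTAL, while it held 257 CPM in WT CTAL 22 against 674 to 734 CPM in the other WT CTAL pools. The first record held 359, 90.1 and 373 CPM in cKO MTAL. Since the 2 records cover the same span on the same strand, reads cannot be assigned to 1 of them with certainty, and no direction is read for the gene.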

How the data were processed

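Poly-A RNA libraries were made with a strand-specific kit. The authors trimmed the reads and used the DRAGEN platform for mapping to mm10 and for quantification by a GENCODE annotation, and the processing notes of the submitters also name FastQC, Trimmomatic and Picard. Per gene, the authors deposited estimated counts without normalization, part of which carry decimals (6.26% to 9.53% of genes per pool). TPM values deposited by the authors are corrected for length and scaled to 1000000 per pool. The treatment of multi-mapping reads and the use of the strand in counting are not given in the sources used here.

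Estimated counts were rounded and tested in R (version 4.3.3) by edgeR (version 4.0.16) with its quasi-likelihood test and TMM factors (0.937 to 1.08), on the pools of the groups compared. The p-values were adjusted by the Benjamini-Hochberg method over all genes that passed the filter. The interaction was fitted on all 18 pools. Scripts were tested on simulated data. Alternatives were DESeq2 (version 1.42.0), limma (version 3.58.1) on log2(TPM + 1), other normalization and filters, terms for *Xist* or proximal tubule markers, 1 fit of all pools, and leaving out each pool. Pools are distinct mice and groups share no replicate numbers, so that no pairing was possible. Precision of a value is limited by the number of pools, by total counts of 10824299 or more and by counting error.

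The genes, the pathway and marker lists and the tests were chosen with earlier results of these data known. Genes named are those with an adjusted p under 0.05 in any of the 5 tests, the up to 3 most abundant of each role class, and the up to 3 largest changes of the pathway lists per comparison. Other genes, among them near misses, *Cyba* in MTAL and both *Nnt* records, were chosen after their values were seen. Gene identifiers were matched to GENCODE M21 of GRCm38, the build also called mm10 (55141 of 55401, 99.53%). RefSeq promoter windows matched 46 of the 54 genes, and *Gclc*, *Gsr*, *Gsta4*, *Gstt2*, *Hmox1*, *Prdx6*, *Prdx6b* and *Sod3* had none.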

Additional observations from a re-analysis of the deposited data

Results flagged for a closer look

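The genotype effect on *Gpx6* differed between MTAL and CTAL, with an interaction of -0.718 on the log2 scale (edgeR, adjusted p = 0.00788). The other values named here are single pools that stood far from the rest of their group in CPM, by the size of the gap to the nearest pool relative to the range of the group. There were 8 of them among 129 groups of 5 pools tested, where chance alone gives about 6, or 1 in 20.

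*Gpx3* held 98.6 CPM in WT CTAL 22 against 27.1 to 33.8 CPM in the other pools of the group, and 405 CPM in cKO CTAL 2 against 24 to 63.9 CPM. *Sod3* held 32.2 CPM in cKO CTAL 2 against 4.47 to 8.57 CPM. *Gsto1* held 91.3 CPM in that pool against 68.7 to 74.3 CPM, so that 3 of the 8 belong to cKO CTAL 2. *Mgst3* held 252 CPM in cKO CTAL 9 against 190 to 207 CPM, and *Gstm4* held 13.9 CPM in WT MTAL 11 against 11 to 11.7 CPM. Low values were those of *Keap1*, at 33.8 CPM, and *Prdx1*, at 132 CPM, both in WT MTAL 15, against 47.6 to 50.3 CPM and 161 to 172 CPM in the other WT MTAL pools.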

How the results depend on the processing

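Counts of these genes with an adjusted p under 0.05 depended on the test. For cKO MTAL against WT MTAL the count of 6 became 13 and 12 with DESeq2 (TMM factors and its own size factors), 14 in 1 fit of all 18 pools and 2 with limma on log2(TPM + 1), and lay between 3 and 7 when 1 pool was left out. For cKO CTAL against WT CTAL the count of 1 became 3 with either form of DESeq2, and 0 with WT CTAL 1 counted as cKO, with the *Xist* pools left out, with a term for *Xist*, in 1 fit of all pools, and with a term for proximal tubule markers, which was chosen after seeing the data (1 to 2 without 1 pool). For WT MTAL against WT CTAL the count of 13 became 7 with limma and 8 with a term for *Xist* (9 to 13 without 1 pool). For cKO MTAL against cKO CTAL the count of 1 became 2 without a filter, 4 with either form of DESeq2, in 1 fit of all pools and with the terms for *Xist* and for proximal tubule markers, and 0 with limma (0 to 2 without 1 pool). For the interaction the count of 1 became 0 with limma (1 to 3 without 1 pool). The cause of these shifts was not tested. *Cat* in MTAL turned from -0.42 to 0.0306 with limma on log2(TPM + 1) (adjusted p = 0.958). Over all of these genes called, together with *Cldn10* in the genotype comparisons, leaving out 1 pool kept 192 calls and lost 37. The other alternatives kept 173, lost 37 and turned 1. Fits in which a gene failed the filter, as *Hmox1* did without a cKO MTAL pool, are not in these counts. Leaving out the *Xist* pools was not run where WT MTAL took part, since 1 WT MTAL pool would remain. No paired analysis was possible because the groups share no replicate numbers.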
